A study of Rattus norvegicus with 6 samples.

Results

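The regions described here are typical-size tiled regions of a rat methylation array whose probes are of middle length. Probes on one chromosome were joined into a region where the gap between them was 1000 bp or less, and those on chromosomes 1 to 20 with 6 to 20 probes and a mean probe length above 46 and at most 52 nt were kept. This gave 9899 of 16123 regions, or 61.4% of all. They were chosen from the array layout and not from any measured value. The comparison made within them was between probes in the central segment, when a region is cut into 3 equal lengths, and probes in the outer segments on either side.

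The study measured DNA methylation in the heart of newborn Sprague-Dawley rats, labelled as cardiac muscle at day 1. In the control group (3 arrays) the mothers received saline during pregnancy. In the PM2.5 group (3 arrays) the mothers received a suspension of PM2.5, fine airborne particles, dripped into the trachea under ether. The immunoprecipitated DNA of a sample was labelled with Cy5 and its input DNA with Cy3, and both were hybridised to one array. The labels mention several concentrations of the suspension, and the sources used here give no dose, litter or pup sex for an array. The labels call the samples biological replicates, and p-values here rest on the spread between those samples alone. Errors given as ± are SDs over the 3 arrays of a group unless another number is named.

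Methylated DNA immunoprecipitation (MeDIP) pulls down DNA fragments with an antibody against 5-methylcytosine, and the ratio of captured to input DNA at a probe is read as relative enrichment of methylated DNA. A fragment carries its neighbours along, so probes closer together than a fragment share signal, and capture depends on how many methylated CpG sites a fragment holds. CpG islands near gene starts are usually little methylated, whereas the flanking DNA usually carries more. Probe length on arrays of this kind is often adjusted to base composition, so that short probes tend to be rich in G and C. Probes come without gene names or sequences in the files, so the regions are named here by their coordinates on the rat build rn4.

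The 9899 regions had a median size of 1667 bp, with a range from 831 to 4999 bp, and a median of 10 probes spaced by a median of 114 bp. Of their 95718 probes, 53.6% were 45 nt long, the shortest length on the array, and 8.23% were 60 nt long. A ratio was used where the spot was unmarked (not called uneven or an outlier by the scanner software) and the input well above background on all 6 arrays, which left 39749 probes, 11839 central and 27910 outer. A region held a median of 4 such probes, with a range from 0 to 13. At least 2 were needed for a region mean, which 9353 regions met and 546 did not. A central and an outer value were both available in 7282 regions.

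Array quality differed in one respect that bears on every value. On PM2.5 replicate 1, 37.2% of the central and 39.1% of the outer spots of these regions were marked, whereas the other arrays had 0.297% to 2.38%. Across the regions, the means of PM2.5 replicate 1 correlated with those of the other arrays at 0.847 to 0.862, and the other 10 pairs of arrays at 0.913 to 0.978; all pairs share the same probes. Marked spots of these regions had a higher mean ratio than unmarked ones on 5 of 6 arrays, for example 0.38 against -0.18 on control replicate 1, and a lower one on PM2.5 replicate 3. The part of marking in the differences below was not tested, and values without PM2.5 replicate 1 are given beside them. That array was also the only one scanned on its day.

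As designed, the mean ratio of the regions was higher on every PM2.5 array than on every control array. The size of the difference depended on PM2.5 replicate 1 and on the choice of probes, and the separation depended on the normalization. Ratios are log2 of Cy5 over Cy3, centred on each array's median, so a value below 0 is below the array's typical probe. The mean over regions was -0.48, -0.56 and -0.58 on control replicates 1 to 3, and -0.092, -0.38 and -0.41 on PM2.5 replicates 1 to 3. The PM2.5 arrays lay above the controls without overlap, and PM2.5 replicate 1 stood far above the other 5 arrays. The group means were -0.54 ± 0.049 and -0.29 ± 0.18 (SD, n = 3 each), a difference of 0.25. The exact permutation test gave a two-sided p of 0.1, below which 3 against 3 arrays cannot go. Without PM2.5 replicate 1 the difference was 0.14 on the same probes, and 0.054 with probes chosen again on the other 5 arrays, which brings back spots marked on that array only. Centred on probes unmarked on all arrays it was 0.058, and with quantile normalization it was -0.0015. With scale normalization it was 0.13 (exact two-sided permutation p = 0.5). In the authors' deposited values it was 0.036 (same permutation test, p = 0.3), and the groups overlapped in both. Within the scanning days that held both groups, the difference as designed was 0.073 (1 array against 1) and 0.19 (2 controls against 1 PM2.5 array).

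Counted region by region, 741 of 9353 regions (7.92%) were higher in the PM2.5 group and 0 were lower, by limma with a Benjamini-Hochberg adjusted p under 0.05 over all tested regions. The background over all 14786 tested regions was 9.79% higher and 0.0473% lower, so the share of higher regions was slightly under that of the array as a whole. At an unadjusted p under 0.05, 2856 regions (30.5%) were higher and 35 (0.374%) lower, against 32.5% and 0.622% of all tested regions. The 3 arrays of one group all lay above those of the other in 3465 regions (37%) with PM2.5 higher, against 37.9% of all tested regions, and in 142 (1.52%) with PM2.5 lower, against 1.9%. The count depended on the processing. It was 0 with normexp background correction, with scale or quantile normalization, with each probe length centred by itself, and in the authors' deposited values. With the slide, inferred from the scan time, as a random block it was 3. Leaving out control replicate 2 or control replicate 3 also gave 0 calls. With PM2.5 replicate 1 left out there were 881 higher and 25 lower on the same probes, and 407 higher and 21 lower of 9899 with probes chosen again. The replicate number as a block gave 1561 higher and 6 lower, and the scanning day as a block gave 1381 higher and 58 lower. The balance of directions moved too. Centred on probes unmarked on all arrays, 141 were higher and 8 lower. At an unadjusted limma p under 0.05, that centring gave 1469 higher and 639 lower. The counts under alternatives have no share of all tested regions beside them, so they show only how these counts depend on processing.

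The 741 higher regions were among the less enriched ones in controls. Their control means had a median of -1.48, and their PM2.5 means a median of -0.83. Over all these regions the array medians averaged -0.47 (control) and -0.23 (PM2.5). The 741 were picked by PM2.5 minus control, and such a choice itself favours low control values. The change had a median of 0.65 and ran from 0.45 to 1.49. In 527 of them that had both segments measured, the median change was 0.67 in the central and 0.65 in the outer segments. Signal in the MeDIP channel was limited in many: in 123 of the 741 every used probe had Cy5 well above background in both groups, in 19 no used probe had in controls, and in 13 none had in either group. Where Cy5 is not well above background the scanner software may have substituted a low value, which was not checked by probe. A higher ratio there cannot be read as more captured DNA. Regions resting on 2 used probes made up 19.8% of the higher regions and 14% of all these regions.

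The ratio and its difference between groups both followed probe length inside this set. Regions with a mean probe length above 46 to 48 nt had a mean ratio of -0.30, -0.34 and -0.35 on the control arrays and 0.057, -0.22 and -0.27 on the PM2.5 arrays. Those above 50 to 52 nt had -0.80, -0.92 and -0.97 against -0.34, -0.65 and -0.66. The groups did not overlap in either class, and all 6 arrays gave the class with longer probes the lower ratio. The gap between these classes was -0.57 ± 0.061 for the control group and -0.41 ± 0.014 for the PM2.5 group. It was narrower on each PM2.5 array than on any control array, with an exact permutation p of 0.1 (two-sided). The share of regions higher in PM2.5 was 4.31% of 4293, 9.02% of 3280 and 14.6% of 1780 from the shortest to the longest class, and the median change was 0.17, 0.26 and 0.34. Outside the set, 0.978% of all 2046 tested regions with shorter probes (mean of at most 46 nt) were higher. Of all 2312 tested regions with longer probes (mean above 52 nt, median 54.6 nt) 24% were higher.

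Single probes of these regions gave the same order. At 45 nt the control mean was 0.12 ± 0.034 and the PM2.5 mean 0.15 ± 0.18 (exact two-sided permutation p = 1, n = 3 each). At 60 nt they were -1.98 ± 0.14 and -1.36 ± 0.18 (exact two-sided permutation p = 0.1, n = 3 each), and the 3 classes between them lay in between in both groups. For 45 nt probes the groups overlapped, with PM2.5 replicate 1 highest at 0.35 and PM2.5 replicate 3 lowest at 0.0087. Each class of longer probes was higher on every PM2.5 array than on every control array. At the lower limit of the set the mean ratio ran on without a visible step: regions within 0.2 nt above 46 nt (308 regions) had group means of -0.17 (control) and -0.027 (PM2.5), and regions within 0.2 nt below it (450 regions) had -0.15 and -0.022. At the upper limit the 134 regions just inside had -0.999 and -0.61, and the 83 just outside had -1.05 and -0.67. Central minus outer, the mean ratio of central probes less that of outer probes, was 0.099 just below 46 nt and -0.056 just above it, and -0.14 just inside and -0.039 just outside 52 nt. Its standard deviation over all regions of the set ran from 1.03 to 1.44 by array. The differences at the limits were not tested, and no step is read from them.

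**Figure D1:**
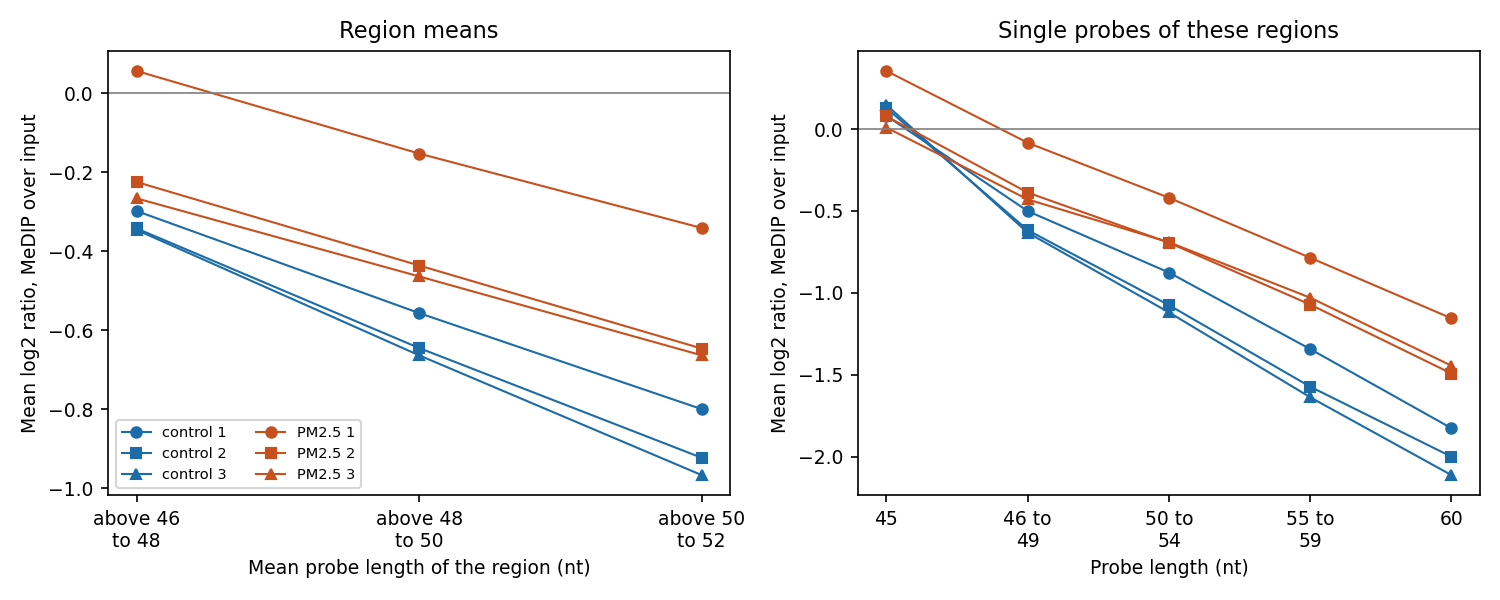
Mean log2 ratio of MeDIP over input (vertical axes) against the mean probe length of the region (left) and the length of single probes (right), in nt, with one line per array. The lines fall with length on all 6 arrays and fall less steeply on PM2.5 arrays; PM2.5 replicate 1 lies highest throughout.

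The regions were also less spread out on the PM2.5 arrays. Over regions, the standard deviation was 0.67, 0.72 and 0.75 on the control arrays and 0.60, 0.57 and 0.55 on the PM2.5 arrays (exact two-sided permutation p = 0.1). Every PM2.5 array, replicate 1 included, lay below every control array. The median standard deviation of probes inside a region was 1.04 ± 0.087 for the control and 0.82 ± 0.076 for the PM2.5 group (exact two-sided permutation p = 0.1). The low end moved more than the high end: the 10th percentile of region means went from -1.45 (control) to -1.01 (PM2.5), while the 90th was 0.30 and 0.37, and without PM2.5 replicate 1 the 90th percentile of PM2.5 was 0.24. Cy5 was well above background at 82.2% (control) and 79.0% (PM2.5) of used central probes. For used outer probes these shares were 81.1% and 78.2%. The part of probes without detected Cy5 in the narrower spread was not tested.

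Regions were named by the size of their change among those with at least 3 used probes that passed the test. The largest rise was at chr1:86329445-86331098, a region of 8 probes with 3 used. Its mean was -2.65, -2.87 and -2.70 on the control arrays and -0.80, -1.67 and -1.27 on the PM2.5 arrays. The groups did not overlap, and the change was 1.49 (SE 0.198, limma adjusted p = 0.0194). Without PM2.5 replicate 1 it still passed, at 1.27 on the same probes and 0.76 with probes chosen again. It missed the threshold without control replicate 2 (change 1.08, adjusted p = 0.0971) and without control replicate 3 (1.51, adjusted p = 0.134). In both groups 2 of its 3 used probes had Cy5 above background.

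The next largest rise, at chr2:228127493-228129034, went from -2.10 ± 0.32 to -0.92 ± 0.49 (SD, n = 3 each; change 1.18, SE 0.237, limma adjusted p = 0.0272). All 3 of its used probes lay in the outer segments. At chr5:170797338-170798987 the mean went from -2.07 ± 0.35 to -0.95 ± 0.37 (change 1.12, SE 0.215, adjusted p = 0.0256), and its central and outer probes changed alike, from -2.09 to -0.95 and from -2.04 to -0.94. The regions at chr10:70266053-70267644 and chr3:170953473-170955084 both changed by 1.1, from -1.27 to -0.17 (adjusted p = 0.0304) and from -2.01 to -0.91 (adjusted p = 0.0235). In these 2 the outer probes moved most. At the region on chromosome 3 the outer probes went from -3.09 ± 0.050 to -1.53 ± 0.45, and the single central probe from 0.16 ± 0.14 to 0.33 ± 0.27. Without PM2.5 replicate 1 the change at that region was 0.88 on the same probes (limma adjusted p = 0.00904) and 0.31 with probes chosen again (adjusted p = 0.0353). Each of these 5 regions fell short of the threshold under at least 8 alternatives. None turned its direction under any alternative that gave it a value. With both channels required above background, the regions on chromosomes 1, 2 and 5 had no value. The regions on chromosomes 10 and 3 then changed by 0.51 (limma adjusted p = 0.17) and 0.88 (limma adjusted p = 0.0284).

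As designed, no region passed as lower in PM2.5. The region with the smallest unadjusted p among the lower ones was chr9:10104638-10106164, at 0.13, 0.17 and 0.28 on the control arrays and -0.26, -0.17 and -0.21 on the PM2.5 arrays (change -0.41, SE 0.129, limma adjusted p = 0.0624). The groups did not overlap, and its 3 used probes had Cy5 above background in both groups. It passed under some alternatives, among them PM2.5 replicate 1 left out on the same probes (change -0.38, limma adjusted p = 0.0462) and the scanning day as a block (-0.37, adjusted p = 0.0321). The other 4 named were on chromosomes 6, 17, 7 and 16, with changes of -0.52, -0.46, -0.40 and -0.37 and adjusted p-values of 0.0728, 0.075, 0.0967 and 0.097. The control means of these 5 regions lay between 0.10 and 1.03, whereas those of the 5 named rises lay between -2.74 and -1.27. Both sets were picked by the change, which itself favours such a contrast.

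**Figure D2:**
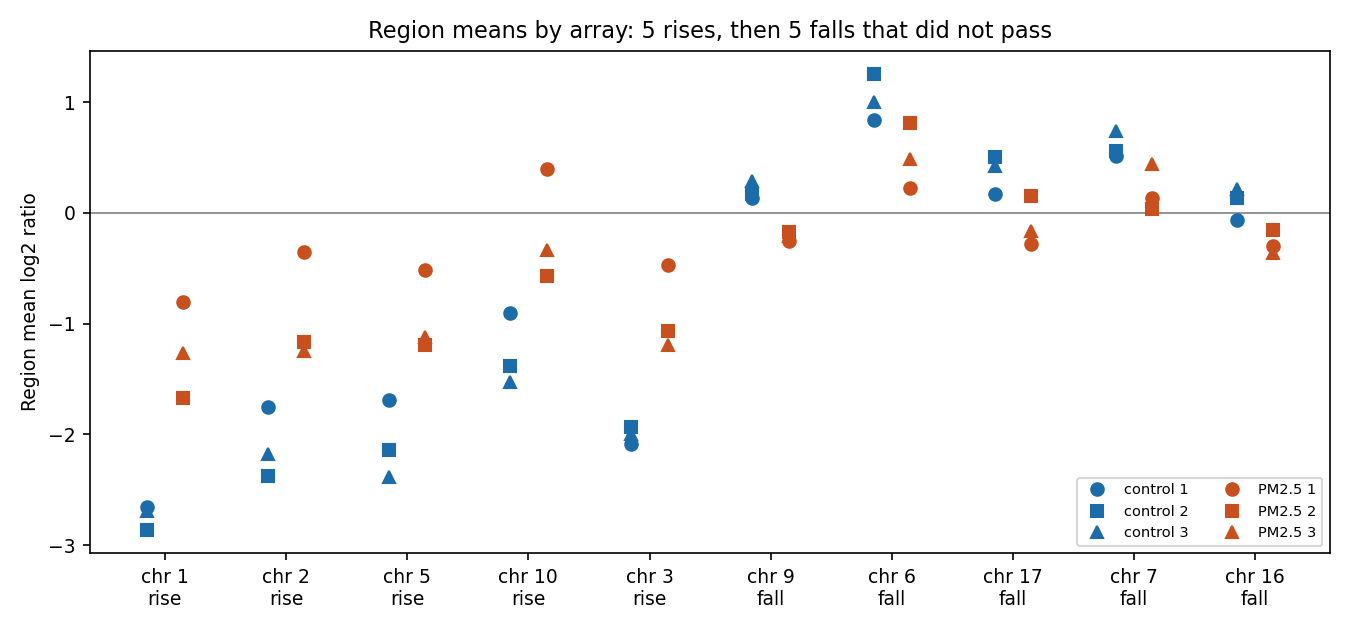
Region mean log2 ratio (vertical axis) on each array for the 5 largest rises past the threshold and the 5 lower regions with the smallest unadjusted p, none of which passed (horizontal axis, by chromosome). The rises start below -1 on average in controls and the lower regions start above 0 on average.

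Averaged over all regions, central and outer probes had nearly the same ratio. The central minus outer difference was 0.038, 0.032 and 0.044 on the control arrays and 0.041, 0.040 and 0.039 on the PM2.5 arrays, a mean of 0.039 ± 0.0042 (SD, n = 6). It was above 0 on all 6 arrays (sign-flip permutation test, exact and two-sided, p = 0.03125, the lowest p open to 6 arrays). The arrays share the same probes, so this p speaks of the arrays and not of the choice of probes. The sign did turn with that choice: the mean was -0.0066 with both channels required to be above background, -0.020 with marked spots kept, and -0.014 without PM2.5 replicate 1 and with probes chosen again. Without that array on the same probes it was 0.038. The difference was small beside its spread over regions, whose standard deviation ran from 1.03 to 1.44 by array. Central probes lay above outer probes on all 6 arrays in 2726 of 7282 regions (37.4%), below on all 6 in 2279 (31.3%), and on different sides in 2277. By channel, the average central minus outer difference was -0.0077 ± 0.0025 in log2 Cy5 and -0.047 ± 0.0042 in log2 Cy3 (SD, n = 6). Both were below 0 on all 6 arrays, so the average ratio above 0 did not come with more Cy5 signal in the centre.

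The groups did not separate in this average. The difference was 0.038 ± 0.0062 on control and 0.040 ± 0.0010 on PM2.5 arrays (exact two-sided permutation p = 0.7). Central probes changed from -0.51 ± 0.047 to -0.27 ± 0.17 and outer probes from -0.55 ± 0.048 to -0.31 ± 0.17 (exact two-sided permutation p = 0.1 each), a change of 0.25 and 0.24. Set against regions with shorter probes, the average difference was lower by a mean of -0.020 (exact two-sided sign-flip permutation p = 0.125, n = 6), and against regions with longer probes by -0.0073 (p = 0.375, same permutation test). Both of these comparisons turned sign under some alternatives, among them the authors' deposited values. Region by region, 0 of 6247 had a central minus outer difference that passed limma's adjusted threshold in either direction. At an unadjusted p under 0.05, 692 (11.1%) were higher and 682 (10.9%) lower in PM2.5, against 10.8% and 10.3% of all 9445 regions tested. The groups did not overlap in 832 (13.3%) with a higher and 891 (14.3%) with a lower difference in PM2.5, against 13.1% and 13.8% of all. With the scanning day as a block 364 passed, 221 of them higher in PM2.5 and 143 lower. The share of all tested regions under that block is not given here, so this count shows only a dependence on processing. Leaving out control replicate 1 gave 6 calls, and leaving out PM2.5 replicate 1 gave 1 with probes chosen again and 0 on the same probes.

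The small average was made of unlike regions. Those with 6 to 8 probes (2172 regions, 1341 with both segments measured) had a central minus outer difference of -0.0038 ± 0.018, and those with 9 to 11 probes (7067 regions, 5386 with both measured) one of 0.0044 ± 0.0095 (SD, n = 6 each). Each changed sign under some alternatives. The 660 regions with 12 to 20 probes, 6.67% of the set, 555 of them with both measured, had 0.47, 0.59 and 0.62 on the control arrays and 0.38, 0.43 and 0.37 on the PM2.5 arrays. All 6 values lay far above those of the smaller regions, and the groups did not overlap. These larger regions ran from 1771 to 4999 bp with a median of 2249 bp. The values are averages of the class: its 88 regions with 17 to 20 probes had -0.10 ± 0.036 (SD, n = 6), below 0 on all 6 arrays. That split was chosen after the values were seen.

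In the regions with 12 to 20 probes the mean over arrays was 0.48 ± 0.11 (SD, n = 6; exact two-sided sign-flip permutation p = 0.03125, and 0.0625 after adjustment over the 6 classes by probe length and probe number that were examined). It stayed above 0 under every alternative run, between 0.18 and 0.50. The low end came from centring each probe length by itself with PM2.5 replicate 1 left out; centring by length alone gave 0.25, requiring both channels above background gave 0.23, and leaving out PM2.5 replicate 1 with probes chosen again gave 0.36. Without that array on the same probes it was 0.50. Of 555 such regions with both segments measured, central probes lay above outer probes on all 6 arrays in 299 (53.9%) and below in 117 (21.1%). In regions of 9 to 11 probes these shares were 36.1% and 32.1%. The difference lay in the Cy5 channel: central minus outer was 0.51 ± 0.073 in log2 Cy5 and 0.036 ± 0.049 in log2 Cy3 (SD, n = 6).

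Probe length moved with this pattern. Among used probes of the regions with 12 to 20 probes, the central ones averaged 47.6 nt and the outer ones 49.5 nt, and 60.5% of the central against 38.2% of the outer probes were 45 nt long. Cy5 was well above background at 89.3% ± 1.7 of central and 77.8% ± 3.87 of outer probes on control arrays. On PM2.5 arrays these shares were 86.0% ± 3.4 and 74.3% ± 5.05. In regions of 9 to 11 probes the mean lengths were 48.9 nt in both segments. The value of 0.25 after centring each probe length is the difference that remained with length set equal in this way; the part of base composition was not tested.

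The central minus outer difference of these larger regions was smaller on each PM2.5 array than on any control array. The group means were 0.56 ± 0.081 (control) and 0.39 ± 0.028 (PM2.5), a change of -0.17 (exact two-sided permutation p = 0.1). Within scanning days the change was -0.094 and -0.18. Outer probes went from -0.67 ± 0.065 to -0.38 ± 0.17 (exact two-sided permutation p = 0.1), with no overlap. Central probes went from -0.11 ± 0.016 to 0.0087 ± 0.16 (exact permutation p = 0.3), and there the groups overlapped: PM2.5 replicate 1 was at 0.19, while PM2.5 replicates 2 and 3 were at -0.054 and -0.11. The change kept its sign under every alternative, from -0.22 to -0.048. It was -0.054 with scale and -0.056 with quantile normalization, which give arrays a like spread. Of the 525 such regions in the fit by region, 0 passed the adjusted threshold. At an unadjusted p under 0.05, 115 (21.9%) were lower and 35 (6.67%) higher, beside 10.3% lower and 10.8% higher of all regions tested. Without PM2.5 replicate 1 the change was -0.16 on the same probes.

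Regions of shorter probes lacked this difference at the same number of probes. With 12 to 20 probes and a mean probe length of at most 46 nt, the central minus outer difference was 0.033, 0.0058 and 0.020 on the control arrays and -0.039, 0.0095 and -0.024 on the PM2.5 arrays. The regions of middle-length probes exceeded these by 0.48 ± 0.092 on average, on all 6 arrays (SD, n = 6). Regions with longer probes and 12 to 20 probes had 0.47 ± 0.097, and the regions of middle-length probes differed from them by 0.0057 ± 0.11, with PM2.5 replicate 1 on the other side of 0 from the other 5 arrays. These comparisons were made after the values by class were seen and carry no test.

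**Figure D3:**
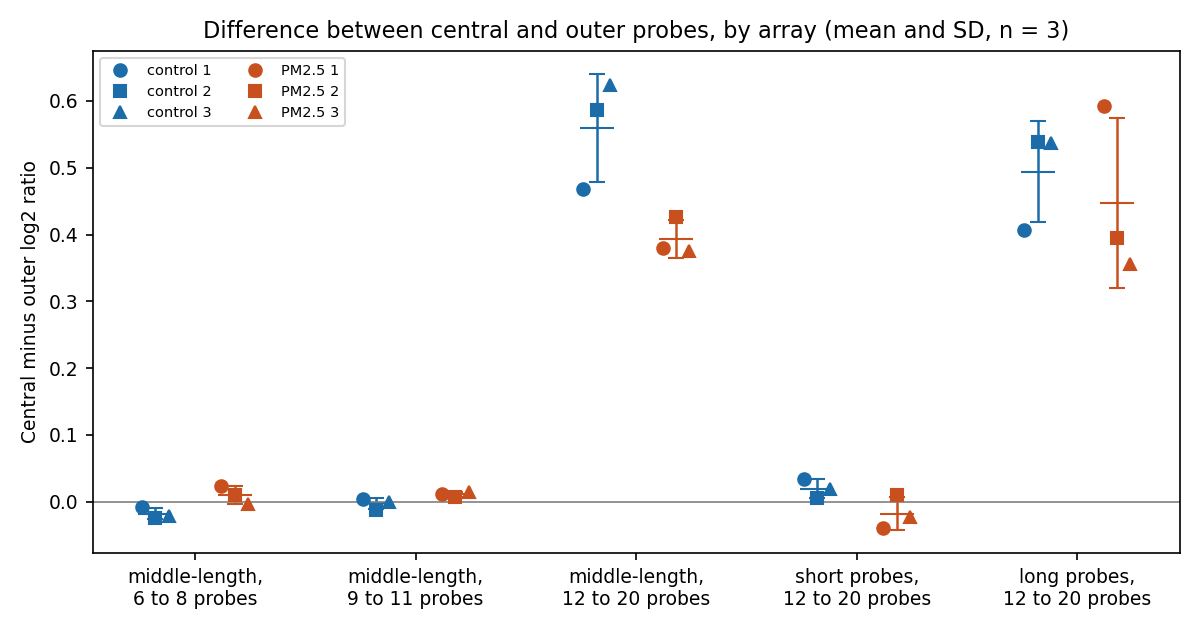
Central minus outer log2 ratio (vertical axis) on each array, for regions of middle-length probes by number of probes and for regions of short or long probes with 12 to 20 probes; points are arrays, and bars show the mean and SD of 3 arrays. Regions of middle-length probes with 12 to 20 probes lie between 0.37 and 0.62, those with fewer probes near 0.

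Along the region the shapes differed too. In 10 equal bins from the first to the last base, the regions with 12 to 20 probes went on control arrays from -0.89 ± 0.086 in the first bin to -0.031 ± 0.0078 in the sixth, and back to -0.73 ± 0.072 in the last (SD, n = 3). PM2.5 arrays traced the same shape, from -0.53 ± 0.21 to 0.046 ± 0.15 and -0.43 ± 0.17. In the sixth bin PM2.5 replicates 2 and 3, at -0.0049 and -0.071, lay close to the controls, whereas in the first bin every PM2.5 array lay above every control array. With each probe length centred, the sixth bin was at 0.045 (control) and 0.031 (PM2.5), and the first at -0.40 and -0.26.

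Regions with 9 to 11 probes had no central peak. On control arrays their outermost bins were lowest, at -0.70 ± 0.065 and -0.68 ± 0.064, and the fifth dipped to -0.59 ± 0.064 (SD, n = 3). The eighth bin was highest at -0.43, followed by the third at -0.45, with the fourth (-0.45) and ninth (-0.45) close to the third. Regions with 6 to 8 probes dipped to -0.70 ± 0.082 in the sixth bin. Over all regions the 2 outermost bins differed from the inner 8 by -0.22 ± 0.023 on control and -0.16 ± 0.010 on PM2.5 arrays, and by -0.11 and -0.082 with each probe length centred. Used probes were longest in the outermost bins, at 49.7 and 49.6 nt, and shortest in the third, at 48.5 nt.

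**Figure D4:**
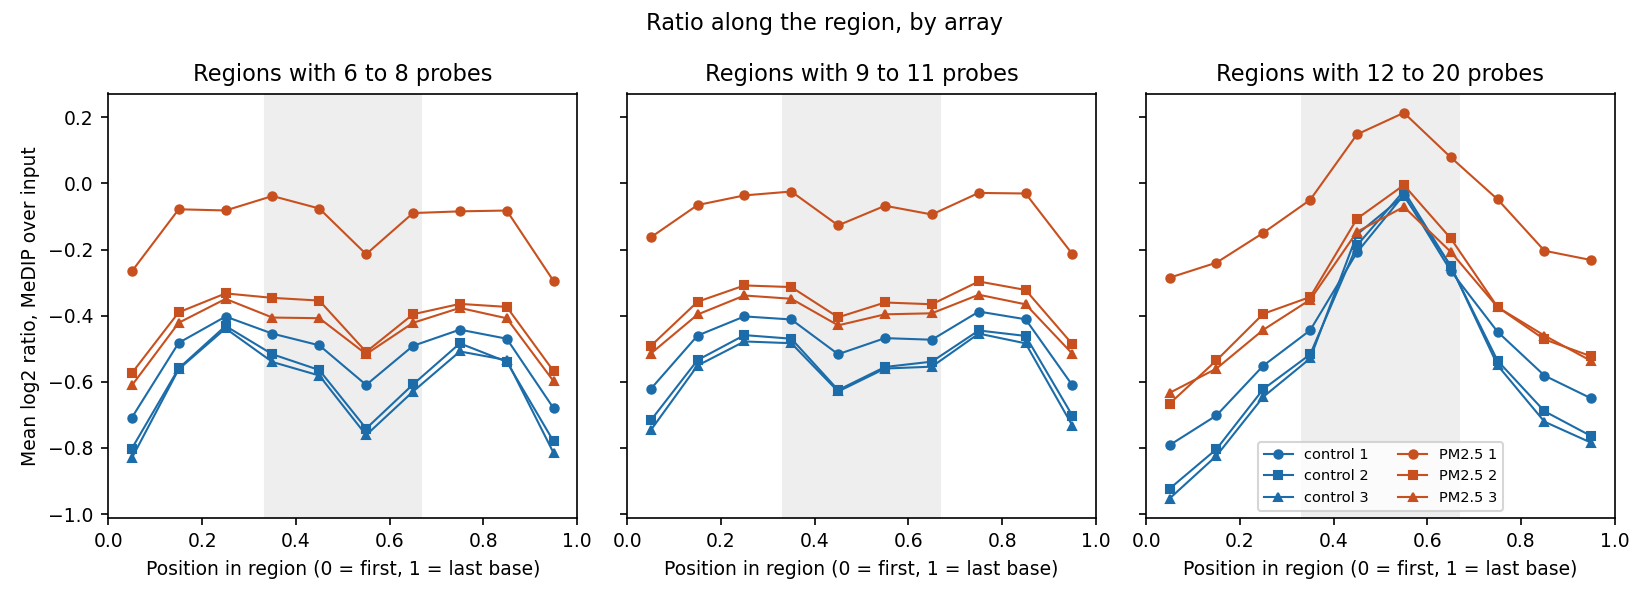
Mean log2 ratio of MeDIP over input in 10 equal bins along the region (horizontal axis, as a share of its length; central segment shaded), by number of probes, with one line per array. Averaged over their class, regions with 12 to 20 probes peak in the middle on all 6 arrays, and the smaller ones have a shallow dip there.

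Single regions differed from centre to flank far more than the average did. Among regions with at least 2 used probes in the central and 2 in the outer segments, the highest control value of central minus outer was at chr18:73895128-73896450. It was 4.17, 3.94 and 4.22 on the control arrays and 2.33, 3.02 and 3.41 on the PM2.5 arrays. Its central probes were at 0.22 ± 0.073 in controls and its outer probes at -3.89 ± 0.21, and Cy5 was above background at 2 of its 4 used probes. The next were chr1:95402754-95404466, with a control mean of 3.71 and a PM2.5 mean of 2.61, and chr8:103213741-103215227, at 3.60 and 2.59, each with Cy5 above background at 3 of 4 used probes. The sizes and their order moved with the processing. The mean control value at chr18, 4.11 as designed, was 2.16 with normexp, 2.38 with marked spots kept, 1.83 without PM2.5 replicate 1 and with probes chosen again, and 1.51 in the authors' deposited values. The region at chr1:95402754 lay above it with normexp (2.35) and in the authors' deposited values (1.95).

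The lowest was chr17:36350117-36351806, with central probes at -3.25 ± 0.27 and outer probes at 1.01 ± 0.24 in controls. Its central minus outer difference was -3.71, -4.53 and -4.53 on the control arrays and -4.29, -3.81 and -3.42 on the PM2.5 arrays, and the groups overlapped. The other lowest were chr1:192325837-192327490, with means of -4.15 (control) and -2.63 (PM2.5), and chr15:33268715-33270463, at -3.83 and -2.81. In controls, Cy5 was above background at 3 of 5, 4 of 6 and 2 of 4 used probes of these regions in that order. With normexp the 3 control values were -2.84, -1.86 and -2.10, and in the authors' deposited values -2.06, -1.74 and -1.57. No alternative that gave these regions a value turned the sign of any of the 6. With both channels required above background, none of the 6 had a value. Probes without Cy5 well above background hold low values, which may be substituted ones, so the exact sizes and ranks of the 6 are uncertain. These 6 regions were named for the size of this value in controls, so the values are a description. A value nearer to 0 in PM2.5 was seen in all 6, which a choice by extreme control values favours.

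A further set was named for the smallest unadjusted p of its position difference between groups. Its PM2.5 values lay nearer to 0, but the set was picked by that change, so this is a description. At chr3:57304764-57306513, with 3 used probes in each position, central minus outer was 2.49, 2.47 and 2.45 on the control arrays and 0.76, 1.38 and 1.02 on the PM2.5 arrays. The groups lay well apart, but the change of -1.41 (SE 0.216) had a limma adjusted p of 0.059. Its central probes were at 0.43 ± 0.011 and 0.17 ± 0.085, and its outer probes at -2.03 ± 0.019 and -0.89 ± 0.27 (SD, n = 3 each). By probe, the outer ones of 60 nt and 54 nt were at -3.30, -3.93 and -3.81 and at -3.44, -3.25 and -3.29 on the control arrays, while an outer one of 45 nt was at 0.62, 1.04 and 1.06. Cy5 was above background at 4 of its 6 used probes. The other 2 of this kind, chr16:20116037-20117502 and chr9:14123648-14124971, had control means of 1.89 and 1.88 and PM2.5 means of 0.84 and 0.80 (adjusted p = 0.0753 each, limma).

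In the opposite direction, chr2:1922109-1923725 had a central minus outer difference of -2.97, -3.11 and -3.21 on the control arrays and -1.40, -2.03 and -2.09 on the PM2.5 arrays (change 1.26, SE 0.235, limma adjusted p = 0.0753). The groups did not overlap. A central probe of 58 nt was at -3.76, -3.69 and -3.91 on the control arrays and at -1.39, -2.85 and -3.04 on the PM2.5 arrays, and the outer probes changed little beside it, from a mean of 0.71 ± 0.097 to 0.61 ± 0.33. The regions chr10:90102940-90104583 and chr4:149300999-149302790 went from -2.33 to -1.29 (adjusted p = 0.0757) and from -2.74 to -1.53 (adjusted p = 0.0774). None of these 6 passed as designed, and each passed under 1 alternative at most.

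**Figure D5:**
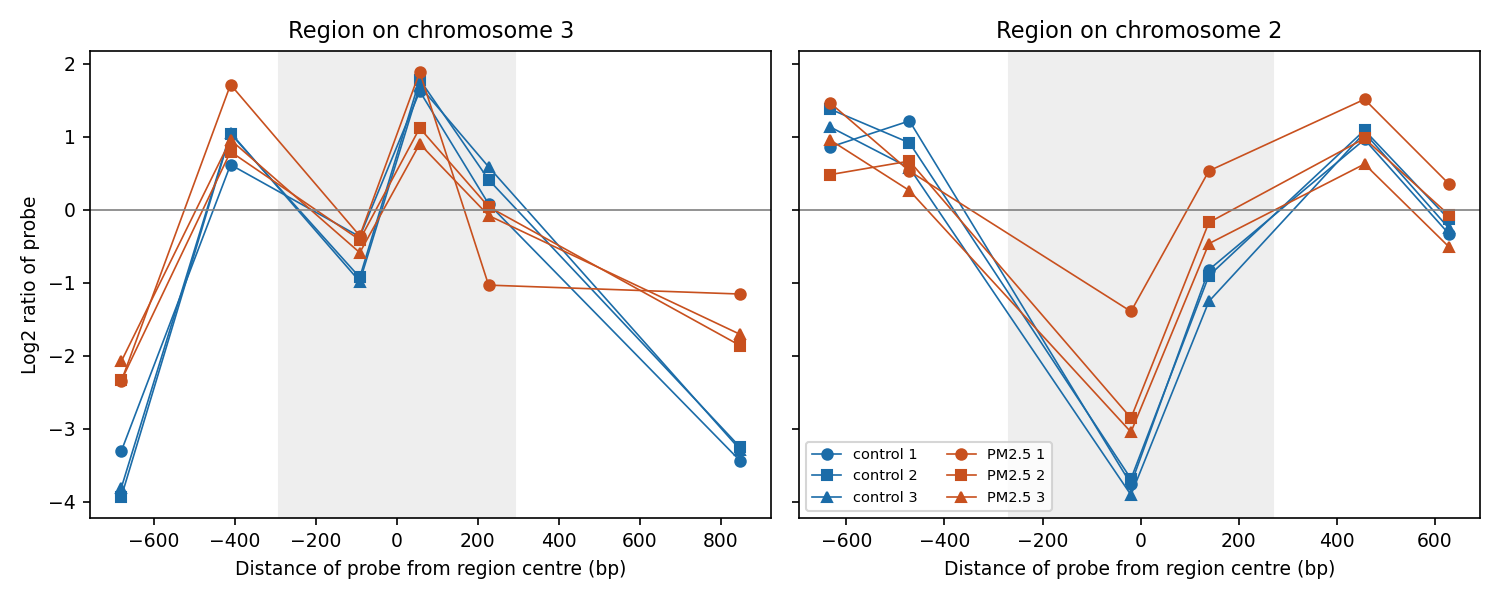
Log2 ratio (vertical axis) of each used probe against its distance from the region's centre in bp (horizontal axis; central segment shaded), one line per array, for the regions on chromosome 3 and chromosome 2 whose central minus outer difference had the smallest unadjusted p in each direction. The probes lowest in controls lie higher on the PM2.5 arrays.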

How the data were processed

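MeDIP-chip arrays of newborn rat hearts were analysed, 3 control and 3 PM2.5. The authors deposited scanner intensity values, made with Feature Extraction 11.0.1.1. That software subtracted background, removed spatial trends, scaled the dyes and put surrogates for low signals, per the file headers. The authors' deposited log2 values, whose scale and smoothing are not stated in the sources used here, served as an alternative. Coordinates are on rn4, per the file headers.

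The log2 ratio of Cy5 over Cy3 was centred on each array's median over unmarked probes with input well above background on all 6 arrays. Region means, and central minus outer differences with at least 1 central and 2 outer used probes, were fitted with lmFit and eBayes (limma 3.58.1, R 4.3.3, data.table, version 1.17.8; figures with matplotlib 3.10.9) over all regions of the array, PM2.5 against control, and p-values were adjusted by Benjamini-Hochberg; the code was tested on simulated data. Single values per array were compared by exact permutation tests, whose smallest p is 0.1 for 3 against 3 and 0.03125 for sign flips over 6 arrays. The number of arrays limits the precision. Controls 2 and 3 had the same scan time and were for that reason taken to share a slide. Arrays were scanned on 3 days, and PM2.5 replicate 1 was alone on its day.

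Replicate numbers are shared by the groups, but same-numbered arrays did not deviate together (correlations -0.017, 0.11 and -0.16), so the numbers were not taken as pairs. Named regions had at least 3 used probes: the 5 regions that rose most and the 5 that fell most among calls without overlap of the groups, filled by the smallest unadjusted p, then, with at least 2 used central and 2 used outer probes, the 3 highest and 3 lowest control values of central minus outer and the 3 smallest unadjusted p-values of its change in each direction. The set of regions, the rules and the tests were chosen with earlier results of these data known; classes by probe number and probe length were added during the analysis. Gene lists and cardiac markers were not used, since probes carry no gene names. Alternatives covered background correction, normalization, filters, centring, blocks, each array left out (probes were then chosen on the other 5), the minimum of used probes, segments by probe order, and gaps of at most 500 bp.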

Additional observations from a re-analysis of the deposited data

How the results depend on the processing

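The 741 regions past the adjusted threshold fell to 0 with normexp, scale or quantile normalization, each probe length centred, the authors' deposited values, and an alternative chosen after seeing the data (each probe length centred with PM2.5 replicate 1 left out). Leaving out an array chose probes again on the other 5; a further alternative chosen after seeing the data left out PM2.5 replicate 1 on the same probes and gave 906 regions, a level of 0.038 overall and 0.50 with 12 to 20 probes (exact sign-flip permutation p = 0.0625 for both, from 5 arrays). At an unadjusted limma p under 0.05 these 6 gave 1712, 547, 444, 1373, 629 and 977 higher and 67, 41, 442, 268, 174 and 532 lower regions. The count was 3 with the slide as a random block, 8 with both channels above background, 128 without the input filter, 149 with centring on commonly unmarked probes, 395 with marked spots kept, 1439 with the scanning day as a block and 1567 with the replicate block; it ran from 0 to 772 with an array left out. Those with an adjusted central minus outer change, 0 as designed, were 364 with the day as a block and 0 to 6 with an array left out. With quantile normalization the mean change turned to -0.0015 and that of outer probes to -0.0063. With an array left out the mean change ran from 0.054 to 0.30, that of central probes from 0.066 to 0.30 and of outer probes from 0.052 to 0.30. The central minus outer level turned to -0.0066 with both channels, -0.020 with marked spots kept and -0.0027 with lengths centred and PM2.5 replicate 1 left out; it was 0.039 (p = 0.0625, exact sign-flip permutation test over 5 units) with controls 2 and 3 averaged as 1 slide, and -0.014 to 0.041 with an array left out. Its change turned to -0.0019 in the authors' deposited values, -0.032 with segments by probe order and -0.0041 with gaps of at most 500 bp, and ran from -0.00043 to 0.013 with an array left out. Against shorter probes it was -0.044 (p = 0.03125, exact permutation test) with marked spots kept, turned to 0.0075 in the deposited values and 0.050 by probe order, and ran from -0.046 to -0.014 with an array left out. Against longer probes it passed at -0.047 with normexp, -0.094 with both channels, -0.017 with marked spots kept and -0.19 with each length centred, turned to 0.022 in the deposited values, 0.089 with at least 2 used probes in each position and 0.066 by probe order, and ran from -0.012 to 0.0093 with an array left out. Regions of 6 to 8 probes turned to 0.013 without the input filter, 0.028 in the deposited values, 0.22 by probe order, 0.061 with shorter gaps, and with an array left out ran from -0.039 to 0.010. Those of 9 to 11 probes turned to -0.027 with both channels, -0.048 with marked spots kept, -0.018 with lengths centred and PM2.5 replicate 1 left out, and with an array left out ran from -0.042 to 0.0075. Those of 12 to 20 probes kept their sign, at 0.45 with the shared slide, 0.18 with lengths centred and PM2.5 replicate 1 left out and 0.36 to 0.50 with an array left out (exact permutation p = 0.0625 in each, the smallest that 5 units allow), and their change ran from -0.22 to -0.13 with an array left out. The replicate block left the other changes as they were; block fits give no separate level, and probe order does not enter region means. The cause of these differences was not tested. Signal over background limits the ratio where Cy5 is not detected.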

Other observations

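The average position effect varied between chromosomes, which average different regions, whereas the arrays average the same ones. Over single regions the standard deviation of central minus outer ran from 1.03 to 1.44 by array. The spread between chromosomes was not tested against it. Central minus outer, averaged over the 6 arrays, ran from -0.15 on chromosome 11 (210 of 270 regions had both segments measured) and -0.13 on chromosome 15 (259 of 340 regions) to 0.16 on chromosome 8 (423 of 577 regions) and 0.19 on chromosome 16 (194 of 281 regions). It was above 0 on 13 of 20 chromosomes, and on 10 of them on all 6 arrays; on chromosomes 4, 11 and 15 it was below 0 on all 6. The share of regions higher in PM2.5 ran from 2.86% on chromosome 19 (7 of 245) to 12.4% on chromosome 18 (30 of 241), beside 7.92% of all these regions, and the median change from 0.19 to 0.29. The arrays share their probes, and these values were not tested.

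Within the regions of 12 to 20 probes, a split chosen after their values were seen gave a central minus outer difference of 0.55 ± 0.13 with 12 to 13 probes (283 of 347 regions measured), 0.62 ± 0.13 with 14 to 16 probes (189 of 225) and -0.10 ± 0.036 with 17 to 20 probes (83 of 88; SD over 6 arrays). In the last of these, all 6 arrays lay below 0, from -0.15 to -0.053, so the central peak was not found in the regions with most probes. Neighbouring used probes of a region correlated at 0.28 ± 0.021 on control and 0.24 ± 0.034 on PM2.5 arrays (SD, n = 3 each), a description over probes that share a region.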
